A study of Mus musculus with 4 samples.

Results

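Transcripts of the BTG and TOB antiproliferative family were compared between IL-10 producing and non-producing CD4+CD25+ T-cells of mice treated with CD28SA, a superagonistic antibody to the costimulatory receptor CD28. The genes were Btg1, Btg2, Btg3, Tob1 and Tob2 together with Cnot7 and Cnot8, the deadenylases their proteins bind. Every probe set that the platform annotation gives to 1 of these 7 genes alone was taken, which left 17 of 45037 probe sets and 6 of the 7 genes, since Btg3 had no probe set of its own. The family was chosen by its members' measured differences on these same arrays, so the differences of the 17 probe sets are descriptions and support nothing further. All 4 samples came from C57BL/6 mice, 6 to 12 weeks old, that had received the CD28 superagonist D665 intraperitoneally. On day 3 the CD4+CD25+ lymph node cells were taken and kept overnight with human IL-2 (200 U/ml) and antibodies to CD3 (2 µg/ml) and CD28 (5 µg/ml). They were then stained for IL-10 and sorted by FACS into IL-10+ cells (replicates 1 and 2) and IL-10− cells (replicates 3 and 4), and 1 Affymetrix mouse array was hybridised per sample. There was no untreated group, so the comparison is between producers and non-producers within activated cells. Nothing in the labels says that the 2 samples of a group came from separate mice, so the spread behind each p-value may be purely technical.

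BTG and TOB proteins share a conserved amino-terminal domain that binds the CAF1 deadenylases Cnot7 and Cnot8, catalytic subunits of the CCR4-NOT complex. CCR4-NOT shortens the poly(A) tails of mRNAs, after which transcripts are decapped and degraded. Members of the family slow the cell cycle when overexpressed, Btg1 and Btg2 are known for holding mouse T-cells in quiescence by keeping global mRNA levels low, and Tob1 is known from human T-cells as a brake on activation.

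The deposited values are variance-stabilized and are read here as log2, and a difference is always IL-10+ minus IL-10−, so that 1 stands for 2-fold. A probe set was called higher or lower where limma's adjusted p, over all probe sets, was under 0.05. Il10 itself was measured at 12.02 and 12.00 in the IL-10+ samples and at 10.41 and 10.37 in the IL-10− samples, a difference of 1.62 in the direction of the sort labels. Lists of markers were read through the brightest probe set of each gene, by which 8.37% of all 18193 genes were higher and 22.9% lower. Of 7 T-cell markers, Cd4 (0.51), Cd3g (0.41) and Cd5 (0.21) rose and Foxp3 fell by 0.72, from 11.55 on both IL-10− arrays to 10.86 and 10.79. Of 11 measured markers of B-cells and plasma cells 9 fell and 0 rose, led by H2-Aa (-3.71), Mzb1 (-2.75), Jchain (-2.75) and Ms4a1 (-1.22), and the mean over the list was 6.99 and 6.98 in the IL-10+ against 8.27 and 8.21 in the IL-10− samples. Pax5 averaged 6.16 over the 4 arrays, below their medians of 6.32 to 6.41. By all probe sets, 5 of 9 of the T-cell list were higher and 1 lower. The other Cd4 probe set stood at 3.07 and the other of Il2ra at 0.38, both called higher. Of 23 probe sets of the B-cell and plasma cell list, 14 were lower and 2, both of Xbp1, higher. Of all probe sets, 13.6% were higher and 16.2% lower. Of the NK cell markers 2 of 5 fell (Gzma -0.70, Eomes -0.62; list mean 6.89 and 6.93 against 7.20 and 7.29), of the CD8 T-cell markers 1 of 2 fell (Cd8b1 -0.24; 7.27 and 7.17 against 7.51 and 7.36), and of 8 myeloid markers 3 rose (Cd68 0.89, Cd14 0.49, Csf1r 0.30; 6.89 and 6.86 against 6.72 and 6.70). The calls of Cd5, Cd8b1 and Csf1r were lost without IL-10+ replicate 1 or 2, that of Cd5 also without IL-10− replicate 4 and after median centring, and that of Cd8b1 without IL-10− replicate 3. The NK cell markers that did not pass averaged below the array medians, namely Ncr1 (5.88), Klre1 (6.07) and Klra8 (5.59). Gzma averaged 11.42 and Eomes 6.44. The part of the listed markers in the differences below was not tested. In such bulk samples, fewer cells of a type and less RNA per cell cannot be told apart.

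The promoters of Btg1 and Btg2 are shown because these were the genes with the largest differences, and in each the capitals mark letters searched on both strands. Sequences are from RefSeq on GRCm38.p6, 250 bases ending at the transcription start, 5′ to 3′ on the gene's strand; 6 of the 7 genes matched the table, with 10 windows. The Btg1 window lies at chr10:96616751-96617000 on the plus strand and holds TGTTTAC, a motif of FOXO factors, 204 bases before the start and TATAAA, the TATA motif, 26 bases before it. The Btg2 window lies at chr1:134079156-134079405 on the minus strand and holds TGACGTCA, the cAMP response element (CRE), 166 bases before the start.
Btg1: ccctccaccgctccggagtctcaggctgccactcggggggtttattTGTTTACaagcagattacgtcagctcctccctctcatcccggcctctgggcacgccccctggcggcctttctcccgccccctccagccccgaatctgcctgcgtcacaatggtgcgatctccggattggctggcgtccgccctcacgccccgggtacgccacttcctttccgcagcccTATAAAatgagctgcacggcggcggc
Btg2: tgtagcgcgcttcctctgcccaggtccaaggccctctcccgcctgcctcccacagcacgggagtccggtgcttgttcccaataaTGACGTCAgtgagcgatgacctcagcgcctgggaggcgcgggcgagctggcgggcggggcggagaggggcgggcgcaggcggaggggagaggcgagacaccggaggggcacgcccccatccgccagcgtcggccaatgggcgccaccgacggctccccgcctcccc
Of 32851 windows of this length, 3.17% held TGTTTAC or its reverse complement GTAAACA, 1.55% held the palindrome TGACGTCA, and 12.4% held TATAAA or its reverse complement TTTATA. Among the other members' windows, that of Tob1 held TATAAA, 47 bases before the start, and those of Btg3, Tob2 and Cnot8 held none of the 3 motifs. The motifs were picked after the sequences had been read, and a match is a description of the letters only.

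Btg2, an immediate-early gene of many stimulated cell types, differed by more than 3-fold in 1 of its 2 probe sets and by almost nothing in the other. Probe set 1416250_at read 9.57 and 9.81 in the IL-10+ samples and 7.99 and 8.04 in the IL-10− samples. Both IL-10+ arrays thus lay well above both IL-10− arrays, and the difference was 1.68 (SE 0.09), or 3.19-fold. Probe set 1448272_at, annotated to the same transcript record, read 8.61 and 8.63 against 8.66 and 8.70, a difference of -0.06 (SE 0.06). Here the 4 arrays lay close together, the probe set was not called, and its sign turned after quantile normalization (0.014), with -0.13 after median centring. The mean over both probe sets was 0.81.

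Btg1, the family member that is abundant in resting lymphocytes, was higher in the IL-10+ samples in all 3 probe sets, but by very different amounts. Probe set 1442018_at read 9.24 and 9.27 in the IL-10+ samples against 7.21 and 7.25 in the IL-10− samples. This was the largest difference among the 17 probe sets, 2.03 (SE 0.06) or 4.08-fold, and the replicates of each group nearly coincided. It came from the dimmest Btg1 probe set, which is annotated to another transcript record than the brightest, 1426083_a_at. Probe set 1426083_a_at read 12.90 and 12.91 against 12.44 and 12.69, a difference of 0.34 (SE 0.09). It was called higher, but not after median centring (0.27), nor without IL-10+ replicate 1 (0.35) or IL-10+ replicate 2 (0.34). Without IL-10− replicate 3, the array with the lowest reading, the difference was 0.22 and still called. Probe set 1437455_a_at read 12.50 and 12.57 against 12.37 and 12.36, a difference of 0.17 (SE 0.06) that did not pass, although the groups did not overlap. After quantile normalization it did pass (0.29), and after median centring the difference was 0.095. Averaged over its probe sets, Btg1 differed by 0.85, above the differences of both brighter probe sets.

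**Figure D1:**
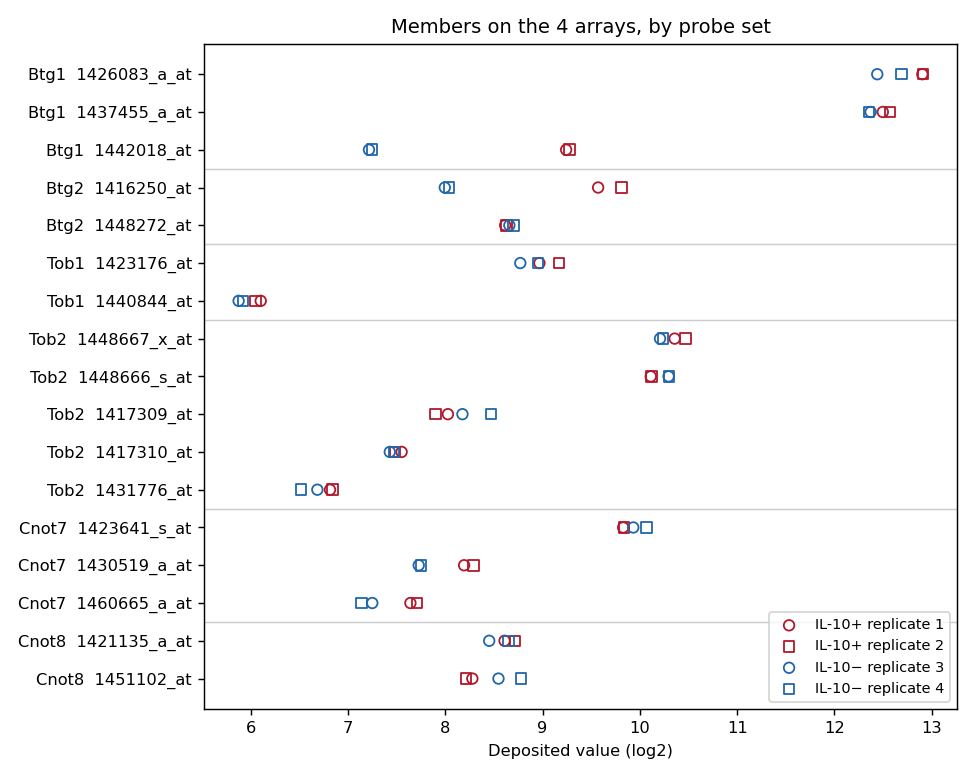
Deposited value (log2, horizontal axis) of each of the 17 probe sets, 1 line per probe set, in the 2 IL-10+ (red) and 2 IL-10− (blue) samples, with circles and squares for the replicates. The groups lie far apart in Btg1 1442018_at and Btg2 1416250_at and close together in the other lines, and positions are to be compared within a line only.

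Tob1 and Tob2 are the larger proteins of the family, which also carry motifs that bind the poly(A) binding protein. For Tob1, both probe sets were slightly higher in the IL-10+ samples and neither passed. Probe set 1423176_at read 8.97 and 9.17 against 8.77 and 8.95 (difference 0.21, SE 0.09). Probe set 1440844_at read 6.10 and 6.05 against 5.87 and 5.92 (difference 0.18, SE 0.06). The groups did not overlap in either probe set, but in the first the lower IL-10+ array and the higher IL-10− array were nearly equal. That probe set passed without IL-10− replicate 4 (0.30) and after quantile normalization (0.28). Its difference shrank to 0.10 without IL-10+ replicate 2, to 0.11 without IL-10− replicate 3 and to 0.13 after median centring, and that of 1440844_at to 0.10 after median centring.

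Tob2 had 5 probe sets, 4 of them annotated to one transcript record, and they pointed in both directions, with a mean of -0.01. Probe set 1417309_at was called lower, at 8.03 and 7.90 in the IL-10+ against 8.18 and 8.47 in the IL-10− samples, a difference of -0.36 (SE 0.10). This call was lost without IL-10+ replicate 1 (-0.42), IL-10+ replicate 2 (-0.30) or IL-10− replicate 4 (-0.21). The remaining 4 did not pass. Of these, 1448667_x_at read 10.36 and 10.47 against 10.21 and 10.24 (difference 0.19, SE 0.07; 0.31 and passing after quantile normalization, 0.12 after median centring). Probe set 1448666_s_at read 10.11 and 10.12 against 10.29 and 10.30 (difference -0.18, SE 0.06), and it passed as lower after median centring (-0.26) and, at the same difference, where dim probe sets were left out, but was at -0.069 after quantile normalization. These readings, from the same record, thus had opposite signs with no overlap of the groups. In 1417310_at the arrays read 7.55 and 7.48 against 7.43 and 7.47 (0.07, SE 0.06; -0.011 after median centring). In 1431776_at they read 6.81 and 6.84 against 6.68 and 6.52 (0.22, SE 0.08), and this probe set passed where dim probe sets were left out and without IL-10− replicate 3 (0.31), but its difference was 0.14 without IL-10− replicate 4 and 0.15 after median centring.

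Cnot7 and Cnot8, the paralogous CAF1 deadenylases through which the family acts on poly(A) tails, each had probe sets on both sides of 0. In Cnot7, 1430519_a_at read 8.19 and 8.29 against 7.73 and 7.75, a difference of 0.50 (SE 0.07). Likewise 1460665_a_at read 7.64 and 7.71 against 7.25 and 7.14, a difference of 0.48 (SE 0.07), and both were called higher with no overlap between groups. The brightest Cnot7 probe set, 1423641_s_at, went the other way at 9.83 and 9.84 against 9.93 and 10.07 (-0.17, SE 0.07). It did not pass, but was called lower after median centring (-0.24) and without IL-10− replicate 3 (-0.23). The difference was smaller without IL-10− replicate 4 (-0.099) and after quantile normalization (-0.063). In Cnot8, 1451102_at was called lower, at 8.28 and 8.21 against 8.55 and 8.78 (-0.42, SE 0.09), though not without IL-10+ replicate 2 (-0.39). The other Cnot8 probe set, 1421135_a_at, read 8.61 and 8.71 against 8.45 and 8.65 (0.11, SE 0.08, and 0.014 without IL-10− replicate 3 to 0.21 without IL-10− replicate 4), and it was the only member probe set whose groups overlapped. Over all probe sets of the gene, the mean difference was 0.27 for Cnot7 and -0.15 for Cnot8.

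Counted together, 5 of the 17 probe sets were called higher, where 13.6% of all probe sets were, and 2 were called lower, where 16.2% were. At the threshold of the study, an adjusted p under 0.001 and a change of 2-fold or more, Btg1 1442018_at and Btg2 1416250_at were higher (1.72% of all probe sets) and 0 members were lower (0.575%). Both IL-10+ arrays lay above both IL-10− arrays in 11 members (32.5% of all probe sets) and below them in 5 (30.5%). The median difference was 0.18 over the members and 0.0098 over all probe sets. Within groups of 2, the SDs of the members ran from 0.0034 to 0.21. Because these differences were known when the genes were chosen, nothing is read from the counts. If the values are natural logs, which the sources used here do not settle, the leading differences become 2.93 (Btg1) and 2.42 (Btg2) on the log2 scale.

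**Figure D2:**
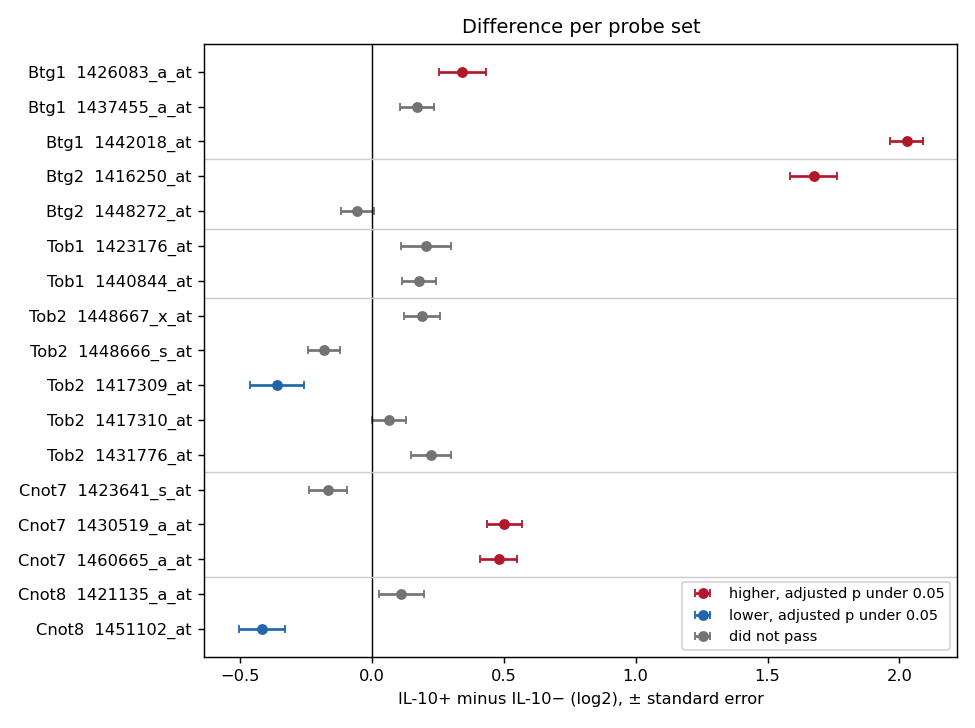
Difference between IL-10+ and IL-10− samples (log2, horizontal axis; points, with bars of 1 standard error from limma, 2 samples per group) for each of the 17 probe sets; red and blue mark calls at an adjusted p under 0.05, grey those that did not pass. Btg1 1442018_at (2.03) and Btg2 1416250_at (1.68) stand far to the right, and all others lie between -0.42 and 0.50.

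The probe sets of a gene disagreed most in Btg1 and Btg2. From the lowest to the highest difference, Btg1 spanned 1.86, a spread reached by 36 of the 2366 genes with 3 probe sets (1.52%; median 0.36). Btg2 spanned 1.73, reached by 34 of 4695 genes with 2 probe sets (0.724%; median 0.18). The spread of the others was reached by larger shares of the genes with as many probe sets. It was 0.67 for Cnot7 (reached by 25.4% of the genes with 3), 0.53 for Cnot8 (17.1% of those with 2), 0.58 for Tob2 (56.2% of the 463 genes with 5) and 0.029 for Tob1 (90.0% of those with 2). These shares describe the arrays and are no test of the members.

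Control probe sets, which lie at known positions of their transcripts, differed too. For 4 bacterial control RNAs spiked into the samples, the 5′ probe sets were higher in the IL-10+ samples by a median of 1.22 (0.68 to 2.16) and the middle ones by 0.82 (0.31 to 1.16), whereas the 3′ ones differed by 0.04 (-0.22 to 0.17). The mouse actin controls gave 1.12 at the 5′ end, 0.90 in the middle and 0.40 at the 3′ end, and those of Gapdh 0.88, 0.33 and 0.02. Where the probes of Btg1 1442018_at and Btg2 1416250_at lie on their transcripts is not given in the sources used here. The part of this gradient in their differences of 2.03 and 1.68 was therefore not tested. Nor was its part in the differences of the other probe sets, those of the gene lists below included. Of the 6 control transcripts, 1 had a 5′ difference above 1.68.

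**Figure D3:**
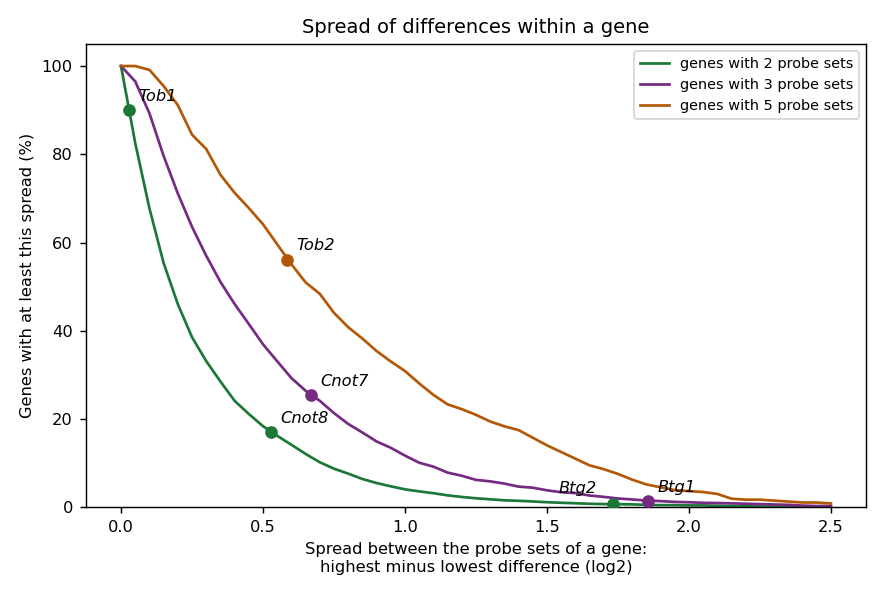
Share of genes (percent, vertical axis) whose probe sets span at least the difference on the horizontal axis (log2, highest minus lowest difference of a gene), as lines for genes with 2, 3 and 5 probe sets. Points mark the 6 members on the line of their own number; Btg1 (1.86) and Btg2 (1.73) lie at the far right, where few genes remain.

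The other genes of the pathway were likewise read through their brightest probe sets, to be set beside the 8.37% of all genes that were higher and the 22.9% that were lower. Of 8 measured further subunits of CCR4-NOT, 2 rose and 5 fell, with a median of -0.36 against -0.015 over all genes. Those that rose were the CCR4-type catalytic subunits, the second pair of deadenylases of the complex. Cnot6l read 10.81 and 10.81 in the IL-10+ against 10.01 and 9.43 in the IL-10− samples, a rise of 1.09 (SE 0.16, adjusted p = 0.00191), and its other probe sets stood at 0.50, 0.33 and -0.60, each passing the test. Cnot6 rose by 0.43 (SE 0.07, adjusted p = 0.0028), and another of its 4 probe sets fell by 0.36. The subunits that fell were Cnot4, a ubiquitin ligase (-0.73, SE 0.07, adjusted p = 0.000193), Cnot10 (-0.61), Cnot3 (-0.55), Cnot2 (-0.44) and Cnot11 (-0.28, adjusted p = 0.0403). Cnot2 and Cnot3 form the NOT module, and Cnot10 and Cnot11 a further module of the scaffold. Other probe sets of these genes were called higher, up to 1.35 for Cnot4 and at 0.50 for both Cnot2 and Cnot11. Over all 29 probe sets of these subunits 8 rose and 10 fell, where 13.6% and 16.2% of all probe sets did. Those shares count dim probe sets too. With probe sets whose mean was under the overall median left out, 5014 of 22519 rose and 7151 fell. The call of Cnot11 was lost after quantile normalization (-0.17) and when IL-10+ replicate 1 (-0.25), IL-10+ replicate 2 (-0.31) or IL-10− replicate 4 (-0.17) was left out. Cnot9, the subunit that docks many recruiting proteins, did not pass (-0.10, adjusted p = 0.338).

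Of 12 listed genes for poly(A) binding proteins, other deadenylases and proteins related to either, 1 rose and 3 fell (median -0.03). Pabpc1, the main cytoplasmic poly(A) binding protein and a partner of Tob proteins, rose by 0.34 (SE 0.07, adjusted p = 0.00819) and in both probe sets, but the call was lost without IL-10+ replicate 1 (0.30). Parn, a poly(A)-specific ribonuclease, fell by 0.58 (adjusted p = 0.00124), Angel2 by 0.52 (adjusted p = 0.00135) and Pabpc4 by 0.27 (adjusted p = 0.021). That of Pabpc4 was lost after quantile normalization (-0.17) and also without IL-10+ replicate 1 (-0.21) or 2 (-0.32). Angel2 had 4 probe sets that fell and 1 that rose by 1.16. Over the 31 probe sets of this list, 7 rose and 7 fell, beside the 13.6% and 16.2% of all probe sets, dim ones included.

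Decapping and 5′ to 3′ decay follow deadenylation, and here 2 of 14 genes rose and 7 fell (median -0.24). Xrn1, the exonuclease that degrades decapped mRNA, read 7.63 and 7.69 against 6.47 and 6.59, a rise of 1.13 (SE 0.07, adjusted p = 4.1e-05), and both its probe sets rose. Ddx6, a helicase that links CCR4-NOT to decapping, rose by 0.54 (SE 0.06, adjusted p = 0.000554) and in 3 of its 4 probe sets. The genes that fell included the LSM ring subunits Lsm3 (-0.56, adjusted p = 0.000898) and Lsm1 (-0.46, adjusted p = 0.00124). Over the 28 probe sets of this list, 7 rose and 10 fell, beside the 13.6% and 16.2% of all probe sets, dim ones included.

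Proteins that bind mRNA and recruit CCR4-NOT were measured for 13 of 16 listed genes, of which 2 rose and 4 fell (median 0.05). Pum2, a Pumilio protein, read 9.29 and 9.42 in the IL-10+ against 10.84 and 10.94 in the IL-10− samples, a fall of 1.53 on the log2 scale (SE 0.07, adjusted p = 1.82e-05), and 1 of its 4 probe sets rose by 0.50. Zfp36l1, which binds AU-rich elements, rose by 0.83 (SE 0.07, adjusted p = 0.000131) in its brightest and by 1.39 in its other probe set. Its paralog Zfp36 fell by 0.54 (adjusted p = 0.000709), while Zfp36l2 rose by 0.24 (adjusted p = 0.0316), a call lost after median centring and without IL-10+ replicate 1 or 2. Tnrc6c, a partner of Argonaute proteins, fell by 0.55 (adjusted p = 0.00126) in its brightest probe set, and 1 of its 3 probe sets rose by 0.41. Rc3h1, which encodes Roquin, fell by 0.47 (adjusted p = 0.00115). By all 45 probe sets of the list, 15 rose and 7 fell, against 13.6% and 16.2% of all probe sets, dim ones included.

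**Figure D4:**
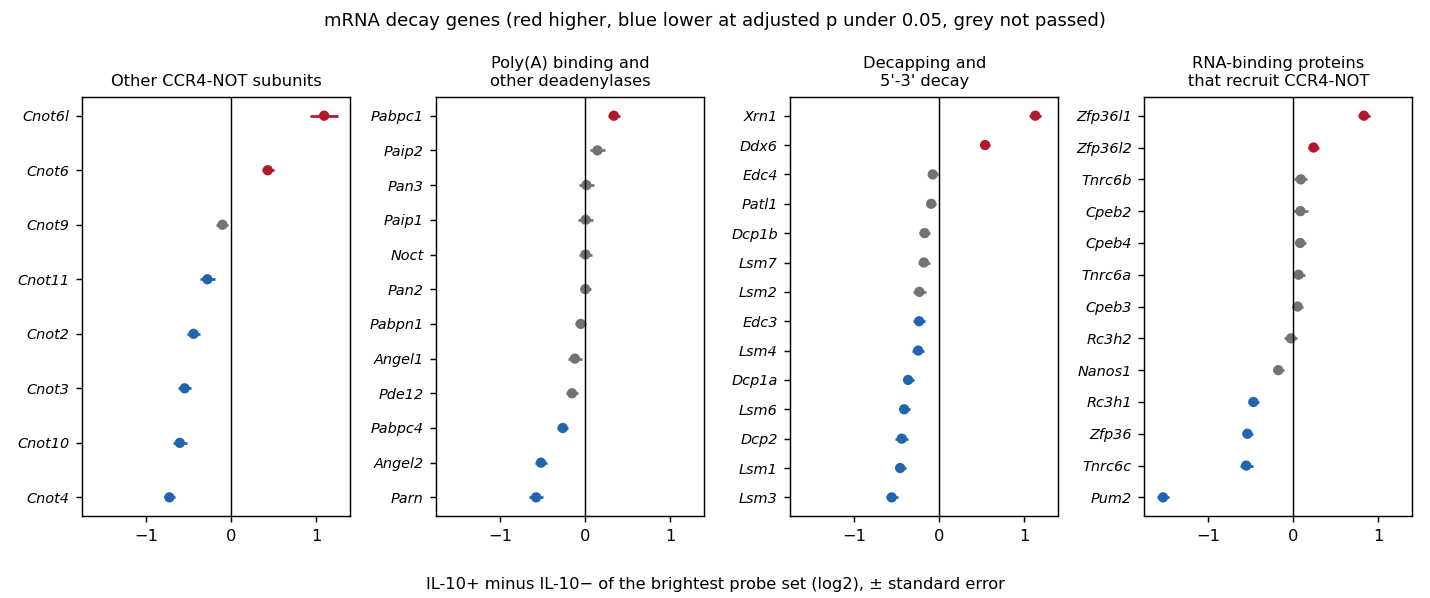
Difference between IL-10+ and IL-10− samples (log2, horizontal axis; points, with bars of 1 standard error from limma, 2 samples per group) of the brightest probe set of each gene in 4 lists, ordered by size within a panel. Red marks genes called higher, blue lower and grey not passed; Cnot6l (1.09), Xrn1 (1.13) and Zfp36l1 (0.83) lie farthest right in their panels and Pum2 (-1.53) farthest left.

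Among genes for known binding partners of BTG and TOB proteins, 0 of 6 rose and 2 fell (median -0.12). These were Smad4 (-0.54, SE 0.07, adjusted p = 0.000737) and Smad1 (-0.43, SE 0.06, adjusted p = 0.00171), which carry BMP and TGF-β signals. Of the 3 probe sets of Smad4, 1 rose by 0.44. Prmt1, an arginine methyltransferase known as a partner of Btg1 and Btg2, did not pass (0.20, SE 0.19), its IL-10− samples reading 9.54 and 8.86. Of 3 measured regulators of the family's transcription, 0 rose and 2 fell (median -0.33). Foxo1, a FOXO factor kept active in resting T-cells, read 9.90 and 9.88 against 10.88 and 10.94, a fall of 1.02 on the log2 scale (SE 0.06, adjusted p = 4e-05), and 3 of its 4 probe sets fell. Foxo3 fell by 0.33 (SE 0.08, adjusted p = 0.0209), which was lost without IL-10+ replicate 1 (-0.26). Of the reported targets, Ccnd1 (0.01) and Il2 (-0.06) did not pass. Over the 4 arrays Ccnd1 averaged 6.33 and Il2 5.81, beside array medians of 6.32 to 6.41. Neither is thus shown to be above background, and their differences say little about the targets. Btg4, the germline member of the family, read 5.98 and 6.07 against 6.00 and 5.85 with overlapping groups.

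Finally, the genes closest in pattern were listed, with the Euclidean distance over the 4 arrays, after centring, as the measure of likeness among 18192 other genes. Nearest to Btg2 (1416250_at) were Il4, a cytokine of helper T-cells (0.145), the actin-binding Pfn1 (0.152), the chemokine receptor Cxcr6 (0.168), the transcription factor Sp3 (0.201) and Il10 (0.201). These genes differed by between 1.51 (Sp3) and 1.82 (Pfn1). Nearest to the brightest Btg1 probe set, 1426083_a_at, were Tmem185b (0.0139), the histone acetyltransferase gene Kat6b (0.0233), Uap1, an enzyme of nucleotide sugar synthesis (0.0267), the Src family kinase Yes1 (0.0322) and Rab3gap2 (0.0379). In all 5, as in Btg1, IL-10− replicate 3 read lowest of the 4 samples. Distances over 4 arrays describe these arrays only.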

How the data were processed

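Gene expression was measured on 4 Affymetrix mouse genome arrays. Total RNA was isolated with Trizol reagent, and the authors brought the array intensities onto a variance-stabilized scale with Bioconductor packages; the deposited values, 1 per probe set and array, were read as log2, although their base is not given in the sources used here. How probes were summarised into probe sets is likewise not given. Variance stabilization compresses the differences of dim probe sets. Detection calls were not used here, so a low value is not shown to be above background. Array data have no depth, and the number of arrays limits the precision.

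Of 45101 probe sets, 64 controls were set aside. Groups were compared with limma 3.58.1 (R 4.3.3; linear fit with empirical Bayes moderation, two-sided, Benjamini-Hochberg), which set 2 IL-10+ against 2 IL-10− arrays over the remaining 45037, with 5.44 prior and 2 residual degrees of freedom. The step was tested on simulated data first. An exact permutation test of 2 against 2 cannot go below p = 0.333 and was not used. In the platform annotation 34945 tested probe sets carry 1 gene, 932 carry several genes (left unassigned), and 9160 have no entry. Matching to RefSeq (GRCm38.p6) changed 0 symbols. A gene outside the family was represented by its brightest probe set, the one with the highest mean over the 4 arrays.

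The members and the 13 lists were chosen with earlier results of these data known. All member probe sets were named, Il10, up to 4 passing genes of each list by size, and the 5 genes nearest in pattern to Btg2 and to Btg1. Cnot6, Cnot2, Cnot11, Cnot9, Zfp36l2, Rc3h1, Prmt1, Ccnd1, Il2, Btg4, Pax5, Il2ra, Xbp1, Ncr1, Klre1 and Klra8 were named after their values were seen. The counts over members, over all probe sets and over the lists of the pathway, and the differences of the members, Il10, Cnot9 and the named list genes that passed, were recomputed with median centring, with quantile normalization, without the probe sets whose mean was under the overall median, with an intensity trend in the prior or a robust prior, without each array in turn, with the threshold of the study, with natural logs, and (not for the counts over lists) without probe sets of the suffixes x or s. The other named genes, the spreads between probe sets, the control transcripts and the nearest patterns were not recomputed. Figures were drawn with matplotlib 3.10.9 in Python 3.11.15. The other experiments of the study were not analysed here.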

Additional observations from a re-analysis of the deposited data

How the results depend on the processing

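Of the 17 member probe sets, Btg1 1442018_at and Btg2 1416250_at were called higher under every alternative run. Their log2 differences ran from 1.95 to 2.06 and from 1.55 to 1.80. Reading the values as natural logs gives 2.93 and 2.42, a change of unit only, under which no call could change. The count of members called higher, 5, became 8 after quantile normalization and 2 at the threshold of the study, and ran from 4 to 6 when 1 array was left out. The count called lower, 2, became 4 after median centring and 0 at the threshold of the study, and ran from 0 to 3 when 1 array was left out (0 without IL-10+ replicate 2, 1 without IL-10+ replicate 1 and 1 without IL-10− replicate 4). Over all probe sets, 6133 higher and 7307 lower became 775 and 259 at that threshold, and 4668 and 10076 after median centring, which moved the median of all probe sets from 0.0098 to -0.07. With 1 array left out, they ran from 3994 to 7427 and from 4676 to 8192. The sign turned for Btg2 1448272_at after quantile normalization (0.014) and for Tob2 1417310_at after median centring (-0.011), neither passing, and the cause was not tested. A trend in the prior and a robust prior changed no member's call. No paired analysis was possible because the groups share no replicate numbers. With 2 arrays per group, leaving out 1 leaves a lone sample that is assumed to vary like the other group. At 2 samples per group, small differences such as that of Tob1 1423176_at can pass or miss the threshold with the scaling, whereas Tob1 1440844_at, itself left out with the dim probe sets, passed under no other alternative.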

Other observations

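Btg3, the remaining member of the family, was covered only by a probe set that is annotated to Gm7334 and Btg3 together, 1449007_at. It read 9.93 and 9.96 in the IL-10+ samples and 9.77 and 9.75 in the IL-10− samples, a difference of 0.18 (SE 0.06) that did not pass (limma, adjusted p = 0.0626), although the groups did not overlap. The signal can be given to neither gene alone. Over the whole array, 1078 of 9010 genes with several probe sets (12.0%) had probe sets called in opposite directions, and the median spread between the probe sets of a gene was 0.29 on the log2 scale.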
